A study of Mus musculus with 4 samples.

Results

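The mouse microglia and macrophage genes described here are a set of 10, namely Cx3cr1, P2ry12, Tmem119, Apoe, Trem2, Spp1, Gpnmb, Cst7, C1qa and Lyz2, out of 31053 mouse (mm10) genes in the combined human and mouse reference. They were chosen by name, with earlier results of these data known. They were read in mouse barcodes, which are droplet barcodes with over 50% of their unique molecular identifiers (UMIs) on mm10 genes. The injured spinal cord library held 93 such barcodes among 231. In blood, barcodes in which haemoglobin genes took over 20% of the mm10 UMIs were set aside, and the remaining mouse leukocytes numbered 839 of 7513 barcodes in SCI blood, 1578 of 6962 in sham blood and 61 of 8124 in naïve blood.

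The study sorted human CD45+ (huCD45+) cells from humanised mice with spinal cord injury (SCI) to profile their response by single-cell RNA sequencing (scRNAseq). Mouse cells were therefore carried through the sort and not sampled from the tissue, and their numbers do not measure how many such cells the cord held. All groups were huNSG-SGM3 mice labelled as NOD.Cg with the mutations Prkdcscid and IL2rgtm1Wjl and with the transgene Tg(CMV-IL3,CSF2,KITLG)1Eav/MloySzJ, at a labelled age of 15 weeks. These hosts lack lymphocytes of their own, express the human cytokines from the CMV promoter, and were irradiated as pups and engrafted with human CD34+ stem cells. Naïve mice had no surgery, sham mice had a T9 laminectomy and SCI mice a T9 contusion, and the operated groups were collected 7 days post-injury (dpi). The naïve and sham libraries came from male hosts and the SCI libraries from hosts of both sexes, and cells were pooled across animals.

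Each group was 1 library, so no test between conditions was made and barcodes were not treated as replicates. Intervals are exact at 95% (Poisson for levels, binomial for shares and ratios) and cover counting error only. There was a cord library for SCI alone, and cord was digested with papain and enriched on magnetic beads while blood had its red cells lysed. Tissue, injury of that tissue and preparation thus cannot be told apart in any difference between cord and blood. No mouse barcode sequence was shared between libraries, and the median depth was 26533 mm10 UMIs per mouse barcode in cord (812 to 78689) against 1659, 1875 and 1170 in SCI, sham and naïve blood.

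Microglia are the resident macrophages of the spinal cord, and in healthy tissue they are marked by Cx3cr1 (the fractalkine receptor), P2ry12 (an ADP receptor that guides their processes, also carried by platelets) and Tmem119 (a membrane protein of microglia). When myelin debris has to be cleared, microglia and incoming monocyte-derived macrophages turn to lipid handling. Genes known to rise then include Apoe (a lipid carrier), Trem2 (a receptor for lipids), Spp1 (osteopontin, a secreted matrix protein), Gpnmb (a lysosomal glycoprotein) and Cst7 (cystatin F, an inhibitor of lysosomal proteases). C1qa (a chain of complement C1q) and Lyz2 (lysozyme) are general to macrophages, and Lyz2 is also abundant in monocytes and neutrophils.

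Because 2 resting genes and 2 injury-associated genes moved in opposite directions across cord barcodes, as given further on, the 250 bases upstream of their RefSeq start sites are shown, 5′ to 3′ on the strand of the gene (build GRCm38.p6). Capitals mark a match to a searched motif. The windows are chr9:120068297-120068546 (minus strand) for Cx3cr1, chr3:59262986-59263235 (minus strand) for P2ry12, chr5:104434861-104435110 (plus strand) for Spp1 and chr6:49036268-49036517 (plus strand) for Gpnmb.
Cx3cr1: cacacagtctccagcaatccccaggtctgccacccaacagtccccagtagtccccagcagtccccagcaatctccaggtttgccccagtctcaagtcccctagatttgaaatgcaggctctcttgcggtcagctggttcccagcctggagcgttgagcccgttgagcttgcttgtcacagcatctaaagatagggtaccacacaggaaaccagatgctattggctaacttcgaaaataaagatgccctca
P2ry12: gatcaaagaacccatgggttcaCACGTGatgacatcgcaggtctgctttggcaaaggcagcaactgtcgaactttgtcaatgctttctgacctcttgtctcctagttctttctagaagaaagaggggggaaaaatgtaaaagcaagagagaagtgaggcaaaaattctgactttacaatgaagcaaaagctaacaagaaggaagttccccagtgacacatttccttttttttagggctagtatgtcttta
Spp1: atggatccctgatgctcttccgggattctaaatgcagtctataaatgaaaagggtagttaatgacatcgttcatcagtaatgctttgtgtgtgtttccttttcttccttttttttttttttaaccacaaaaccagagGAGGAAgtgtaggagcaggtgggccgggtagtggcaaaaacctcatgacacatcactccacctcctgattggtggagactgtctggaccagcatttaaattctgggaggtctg
Gpnmb: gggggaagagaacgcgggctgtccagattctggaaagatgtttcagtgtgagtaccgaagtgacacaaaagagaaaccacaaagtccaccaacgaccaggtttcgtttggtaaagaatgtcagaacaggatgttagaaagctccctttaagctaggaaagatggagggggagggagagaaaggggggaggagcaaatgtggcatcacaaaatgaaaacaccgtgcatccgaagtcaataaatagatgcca

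Promoters of 8 of the 10 genes were matched by symbol in RefSeq, the others being Tmem119 and C1qa. Searches on both strands used GAGGAA (a purine-rich ETS-type core as bound by PU.1), TGANTCA (AP-1), CATGTG (an E-box of the MITF and TFE family) and CACGTG (a palindromic E-box), which do not overlap in these windows. Over all 32851 promoters of the same length, these were present in 23.3%, 6.75%, 12.3% and 6.02%. Spp1 held GAGGAA starting 113 bases upstream, Apoe and Trem2 each held GAGGAA as well, Trem2 held TGANTCA and P2ry12 held CACGTG 228 bases upstream. The windows of Cx3cr1, Gpnmb, Cst7 and Lyz2 held none of these letters, which says nothing about binding elsewhere.

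In the GRCm38 annotation with the gene identifiers of the files, Cx3cr1 (ENSMUSG00000052336) lies at chr9:119901616-120069879 and P2ry12 (ENSMUSG00000036353) at chr3:59216272-59262871. Tmem119 lies at chr5:113793729-113800516, Apoe at chr7:19696109-19699188, Trem2 at chr17:48346401-48354147 and Spp1 at chr5:104435118-104441050. Gpnmb is at chr6:49036546-49070929, Cst7 at chr2:150570415-150578944, C1qa at chr4:136895917-136898803 and Lyz2 at chr10:117277331-117282321. All are protein-coding, and UMIs were counted over the transcript as a whole rather than per exon. The annotated span of Cx3cr1 overlaps 9 other genes, 6 of them on the other strand, P2ry12 overlaps Med12l on the other strand and Spp1 overlaps Gm42793. Whether counting used the strand was not given in the sources used here, so reads of overlapping genes may be shared. Lyz2 shares 195 of its 1267 stretches of 50 bases (15.4%) with its neighbour Lyz1, which took 0.194% of the UMIs of the pair in cord.

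The cord barcodes were first checked against their label. Of 18 macrophage markers other than the 10 genes, all 18 had UMIs in cord, at a median summed level of 317 UMIs per 10000 mm10 UMIs of a barcode, and all 11 microglia markers had UMIs, at a median of 93.5. The least frequent macrophage markers were Cd163 (1 barcode), Lyve1 (3), Cbr2 (9), Mrc1 (10) and Arg1 (11), and Ctsd had the highest median (160). Counted by the summed macrophage level, 86 barcodes lay above 100 per 10000, 1 between 50 and 100 and 6 below 50. Those 86 also had at least 5000 UMIs and are called macrophage-rich. Of the 7 others, 2 had 812 and 815 UMIs of which 90.3% and 94.2% were mitochondrial, 2 carried neutrophil markers (1496 and 1815 per 10000), 1 fibroblast markers (733) and 1 oligodendrocyte precursor markers (79.0), and the last had macrophage markers at 59.9. Neutrophil markers had a median of 1.53 per 10000 in cord against 1687 in SCI blood, 1513 in sham blood and 1061 in naïve blood, so blood was mostly neutrophil-rich where cord was macrophage-rich.

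All 3 resting genes were higher in cord than in every blood library. Levels are UMIs summed over the mouse barcodes of a library and scaled to a total of 1000000 mm10 UMIs without ribosomal and mitochondrial genes (CPM). Cx3cr1 reached 1175 CPM in cord, 45.4 in SCI blood, 103 in sham blood and 183 in naïve blood. P2ry12 reached 402 CPM in cord, against 29.5, 25 and 61.1 in SCI, sham and naïve blood. Tmem119 set the tissues furthest apart within the group, with 706 UMIs (346 CPM) in cord against 2 in SCI blood, 1 in sham blood and 0 in naïve blood.

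Against SCI blood, the log2 ratio for cord was 4.69 for Cx3cr1 (interval 4.37 to 5.04), 3.76 for P2ry12 (3.37 to 4.20) and 7.93 for Tmem119 (6.39 to 11.30). In the macrophage-rich set these genes varied widely between barcodes of the same library. Per 10000 UMIs, Cx3cr1 ranged from 0 to 34.2 with a median of 9.79, P2ry12 from 0 to 43.0 with a median of 1.97 and Tmem119 from 0 to 17.2 with a median of 2.33. Over all 93 barcodes, UMIs were present in 82, 74 and 73, respectively.

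The 5 lipid-handling and injury-associated genes were higher in cord as well. Apoe was the most abundant of the set at 42341 CPM in cord, while SCI blood had 363, sham blood 152 and naïve blood 12.2 (1 UMI). Trem2, which signals downstream of lipid and lipoprotein ligands, was at 3458 CPM in cord, 22.1 in SCI blood, 38.8 in sham blood and 0 UMIs in naïve blood. Spp1 had 22519 CPM in cord but only 13.6, 16.0 and 12.2 CPM in SCI, sham and naïve blood, which are 24, 64 and 1 UMIs. Naïve blood held 1 UMI each of Apoe and Spp1, below the level of 3 counts in that library (36.7 CPM).

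Gpnmb and Cst7 were nearly absent from blood. Gpnmb had 2799 UMIs (1371 CPM) in cord, 0 in SCI and naïve blood and 5 in sham blood, of which 4 lay in 1 barcode. Taking 3 counts as the floor of the SCI blood library, it was at least 806-fold higher in cord, and the exact counting interval began at 655-fold. Cst7 had 638 UMIs (313 CPM) in cord and 3, 1 and 0 in SCI, sham and naïve blood, a ratio of 184 over SCI blood with a counting interval of 62.6 to 894.

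The log2 ratio of cord over SCI blood was 6.86 for Apoe (6.75 to 6.98), 7.27 for Trem2 (6.84 to 7.78) and 10.66 for Spp1 (10.12 to 11.34). Spp1 lay above both, whereas the intervals of Trem2 and Apoe overlapped. Over sham blood their order was the other way, at 8.12 for Apoe (8.0 to 8.23) and 6.47 for Trem2 (6.25 to 6.72). Apoe in SCI blood leaned on few barcodes, with 253 of 641 UMIs in 1 of them, and without that barcode the ratio over SCI blood was 7.58 for Apoe and 7.46 for Trem2.

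C1qa and Lyz2, general to macrophages, behaved unlike each other. C1qa was at 13938 CPM in cord and in blood was close to absent, with 2 UMIs in sham and 0 in naïve blood. The 56.1 CPM of SCI blood came from 99 UMIs, 98 of them in a single barcode of 6706 UMIs that also carried 253 Apoe UMIs and 5 Trem2 UMIs. Without that barcode the log2 ratio of cord over SCI blood rose from 7.95 to 14.00 for C1qa and from 6.86 to 7.58 for Apoe.

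Lyz2 was the least different member, at 23421 CPM in cord, 9182 in SCI blood, 12010.3 in sham blood and 9300.45 in naïve blood. The log2 ratio was 1.35 (1.33 to 1.38) over SCI blood and 0.96 (0.95 to 0.98) over sham blood. With trimmed-mean (TMM) scaling it was 0.72 over SCI blood, and against monocyte-like SCI blood barcodes alone it turned to −0.18 (−0.21 to −0.15).

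**Figure D1:**
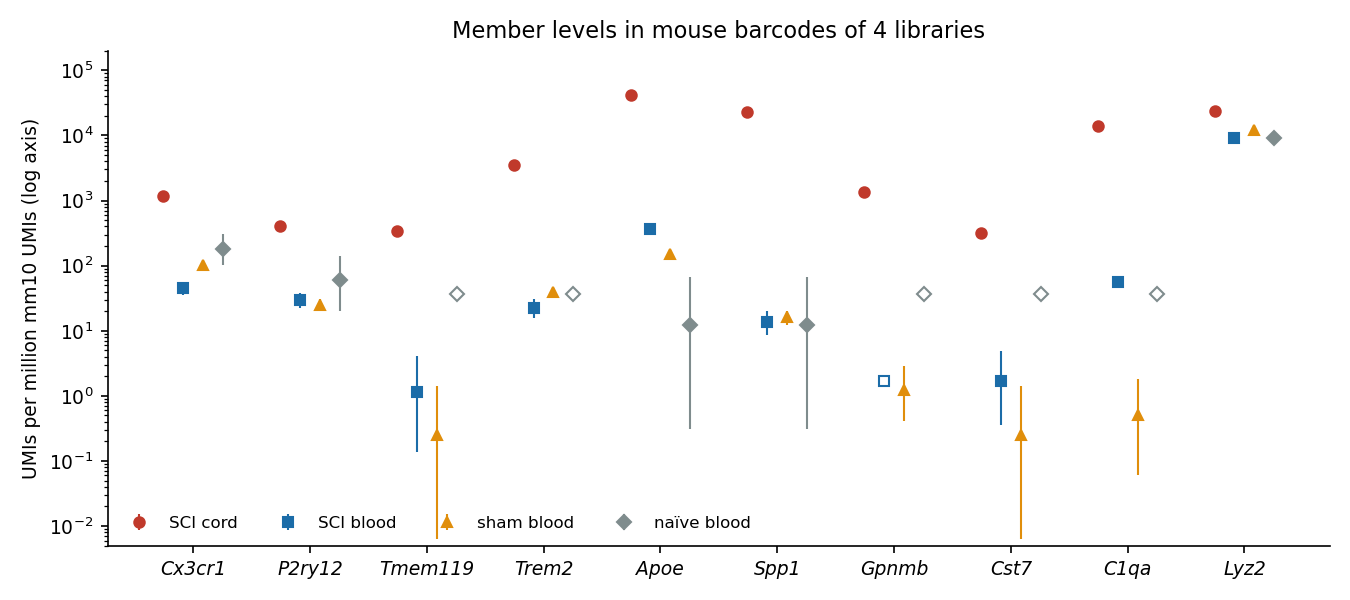
Levels of the 10 genes in mouse barcodes of SCI cord (circles), SCI blood (squares), sham blood (triangles) and naïve blood (diamonds), as UMIs per 1000000 mm10 UMIs (CPM) on a log axis, with exact 95% Poisson bars that cover counting error only; open symbols mark 0 UMIs and stand at the level of 3 counts. For 9 genes cord lies far above blood, whereas Lyz2 lies between 9182 and 23421 in all libraries.

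All 10 genes were at least 2 times higher in cord than in SCI blood, read beside 44.1% of the 9110 mm10 genes with at least 20 counts over both sums. Lower by the same factor were 16.8% of genes and 0 of the 10. Sham blood gave 9 of 10 (all but Lyz2) beside 37.1% of 9772 genes, and in naïve blood the 10 genes were again higher, beside 35.5% of 8041. The median log2 ratio over all tested genes was 0.76, 0.50 and 0.39 in these comparisons, so the scale itself leaned towards cord, and the members lay beyond that shift other than Lyz2, which exceeded it by less than 1.

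Blood monocytes are the nearest blood relatives of these cells. Re-clustering of 2478 blood mouse leukocytes without the 10 genes gave 11 clusters, of which 2 were monocyte-like, one led by Fn1 and Ccr2 and the other by Cd300e and Cd72, with 250 barcodes in all (71 in SCI, 171 in sham and 8 in naïve blood). A further 642 barcodes were neutrophil-like, 231 platelet or megakaryocyte-like and 1355 in clusters left unnamed. Every Cx3cr1 UMI of blood, 507 in all, fell in the monocyte-like barcodes, and 65.6% of these had one. The 642 neutrophil-like barcodes had 0 (exact upper bound 0.573%).

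Apoe was found in 38.8% of monocyte-like barcodes (32.7 to 45.1%) against 0.467% of neutrophil-like ones, and Trem2 in 28.4% (22.9 to 34.4%) against 0.156%. Both genes were thus mainly monocyte-borne within mouse blood, where the median depth was 6491 UMIs in monocyte-like and 2015 in neutrophil-like barcodes. They leaned to different monocyte-like clusters, however. Trem2 was in 58.6% of the cluster led by Fn1 and Ccr2 (193 CPM) and in 8.61% of the other (30.1 CPM). Apoe was in 22.2% (505 CPM) and 49.7% (1234 CPM), respectively. Spp1 did not follow Apoe and Trem2, with UMIs in 1.60% of monocyte-like and 2.02% of neutrophil-like barcodes. Lyz2 was in 97.6% and 91.3%, respectively. The background in barcodes called human, with a median of 4664 UMIs in SCI blood, was 0.127% for Apoe, 0.0159% for Trem2, 0.0637% for Cx3cr1 and Spp1, 0.255% for P2ry12 and 4.15% for Lyz2.

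P2ry12 was spread differently again. Platelet or megakaryocyte-like barcodes had it in 15.6% (11.2 to 20.9%) at 74.6 CPM, neutrophil-like barcodes in 5.30% (3.70 to 7.32%) and monocyte-like barcodes in 10.0% (6.58 to 14.4%) at 17.2 CPM. The first name follows from platelet markers, but these barcodes also had Lyz2 in 89.6%, beside 91.3% of neutrophil-like ones. Their median depth was 1886 UMIs, beside 2015 in neutrophil-like barcodes. Summed platelet markers exceeded 100 per 10000 in 18 SCI, 21 sham and 8 naïve blood barcodes of all classes. Whether the 231 barcodes of the class were platelets was not tested. Across all blood classes, 13% (9.94 to 16.5%) of the 432 barcodes with at least 3 UMIs of platelet markers had a P2ry12 UMI, compared with 4.45% (3.60 to 5.43%) of the 2046 others. By CPM, P2ry12 in blood was therefore higher in the platelet or megakaryocyte-like class than in the monocyte-like class, which held Cx3cr1. By share the order was less clear, as the 2 monocyte-like clusters differed. P2ry12 was in 22.2% of the cluster led by Fn1 and Ccr2 (26.1 CPM, median depth 11128 UMIs). In the cluster led by Cd300e and Cd72 it was in 1.99% (4.75 CPM, 3928 UMIs). These shares were not thinned to a common depth.

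**Figure D2:**
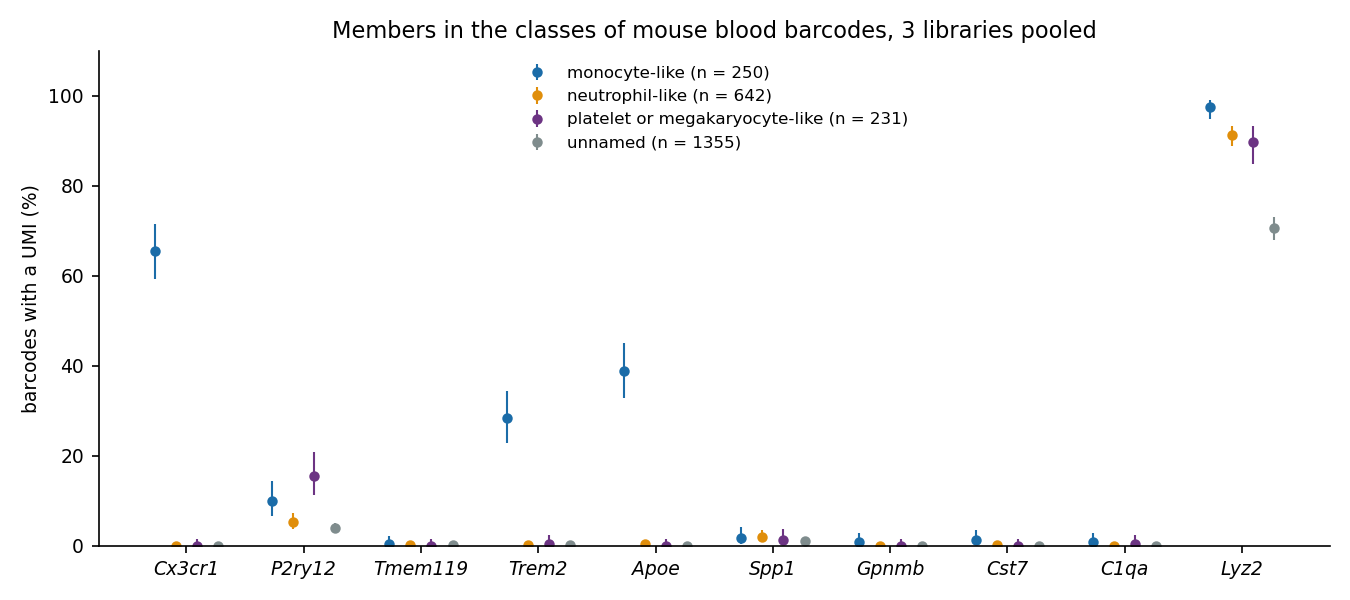
Percentage of blood mouse barcodes with a UMI of each gene, in 4 classes over the 3 blood libraries, with exact 95% binomial bars that cover counting error only. Cx3cr1, Trem2 and Apoe stand out in the monocyte-like class (65.6%, 28.4% and 38.8%), and Lyz2 is frequent in every class. Of these 4 classes, P2ry12 has its highest share in the platelet or megakaryocyte-like class (15.6%). The monocyte-like cluster led by Fn1 and Ccr2 alone had it in 22.2%. Shares are not thinned to a common depth.

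Set against the 71 monocyte-like barcodes of SCI blood alone, 9 of the 10 genes were still at least 2 times higher in cord, beside 15.7% of 8494 genes, with a median over all genes of −0.24. The log2 ratio was 2.47 for Cx3cr1 (2.16 to 2.82), 4.70 for Apoe (4.59 to 4.82) and 5.09 for Trem2 (4.66 to 5.61). The Apoe value leaned on 1 barcode, which held 253 of the 620 Apoe UMIs of these monocyte-like barcodes. Spp1 rested on 1 UMI in those monocytes, with a ratio of 8569 and a lower counting bound of 10.59 on the log2 scale. For Cx3cr1 the ratio was 1.67 (1.52 to 1.82) over the 171 monocyte-like barcodes of sham blood and 0.56 (−0.12 to 1.45) over the 8 of naïve blood, where it was no longer 2 times higher. For Apoe the log2 ratio was 6.29 (6.17 to 6.40) over those of sham blood and 9.10 (7.21 to 14.99) over those of naïve blood, with 1 UMI. For Trem2 the log2 ratio was 4.67 (4.44 to 4.92) over those of sham blood, and naïve blood had 0 UMIs. In SCI blood, Cx3cr1 differed least of these between cord and monocytes, and Lyz2 was the member that was not higher in cord.

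Shares of barcodes with a UMI depend on depth, and each barcode was therefore thinned to 500 mm10 UMIs, which left out 0 cord, 1 SCI blood, 4 sham and 3 naïve blood barcodes. In cord, Apoe was then seen in 92.5% of barcodes (100% unthinned), C1qa in 84.9% (94.6%), Lyz2 in 81.7% (98.9%), Trem2 in 69.9% (93.5%) and Spp1 in 60.2% (93.5%). Cx3cr1 was seen in 31.2% (88.2% unthinned), P2ry12 in 18.3% (79.6%), Tmem119 in 15.1% (78.5%), Gpnmb in 10.8% (43.0%) and Cst7 in 10.8% (72.0%). In thinned SCI blood barcodes the shares were 2.27% for Apoe, 0.597% for Cx3cr1, 1.19% for P2ry12, 0.716% for Spp1, 0.239% for Trem2, 0.119% for C1qa and 61.6% for Lyz2. Tmem119, Gpnmb and Cst7 were in 0 of 838, which allows a share of up to 0.358% by the limit of 3 counts and 0.439% by the exact bound.

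Free mouse RNA was read from the 138 barcodes called human in the same cord library, which had a median of 8620.5 UMIs in all and 58 on mm10 genes. Of these, 81.9% had an Apoe UMI, 60.9% Spp1, 55.1% Lyz2, 31.2% C1qa, 10.9% Trem2, 5.07% Gpnmb and 3.62% Cx3cr1, while Tmem119 and Cst7 had 0.725% and P2ry12 0. The most abundant members were thus present at low counts outside mouse cells, with at most 12 Apoe, 7 Lyz2 and 6 Spp1 UMIs per human barcode. Mouse barcodes above the highest human barcode numbered 87 of 93 for Trem2 and Lyz2, 85 for Apoe, 82 for C1qa, 81 for Cx3cr1, 74 for P2ry12, 66 for Tmem119, 63 for Spp1, 47 for Cst7 and 32 for Gpnmb. Conversely, human counterparts of 9 members had 0 UMIs in the mouse barcodes and LYZ had 12.

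The spread between cord barcodes divided the injury-associated genes in a broad and a patchy group. Apoe and Trem2 were broad. Apoe had UMIs in 93 of 93 barcodes with a median of 291 per 10000 (quartiles 196 and 429), and Trem2 in 87 with a median of 25.8 (18.7 and 32.5), and it took 23 and 24 barcodes to hold 50% of their UMIs.

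Spp1, Gpnmb and Cst7 were patchy. Spp1 ranged from 0 to 958 per 10000 with a median of 26.5 (61.1 in the macrophage-rich set), and 11 barcodes held 50% of its UMIs. Gpnmb was seen in 40 barcodes, and 2 of them held 50% of its UMIs. Cst7 was in 67 barcodes at up to 14.2 per 10000, with 8 barcodes holding 50%. Of the general genes, C1qa was broad (median 114, 22 barcodes for 50%) while Lyz2 was patchy (median 53.9, highest 1018, 10 barcodes for 50%).

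**Figure D3:**
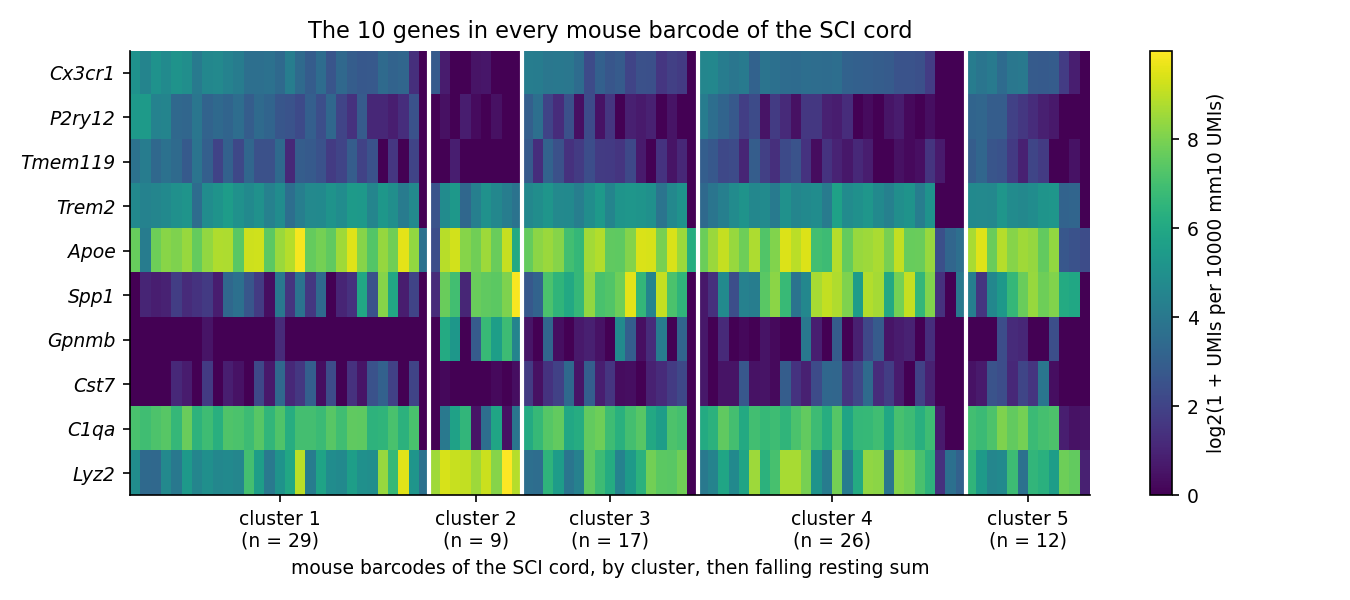
Each of the 93 mouse barcodes of SCI cord is a column and each gene a row, coloured by log2(1 + UMIs per 10000 mm10 UMIs), ordered by cluster and then by falling sum of Cx3cr1, P2ry12 and Tmem119. Apoe, Trem2 and C1qa run across most columns, while Gpnmb is concentrated in the 9 columns of cluster 2, where the resting genes and Cst7 are near 0.

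The 93 barcodes formed 5 clusters when the 10 genes were left out of the genes used for clustering. Cluster 1 (29 barcodes, led by Cxcl13, Kcnk12, Adgrg1, BC035044, Slc2a5 and Crybb1) was microglia-like. The others stayed unnamed and are called by their leading genes, which were Chil3, Fabp4, Atp6v0d2 and Arg1 in cluster 2 (9 barcodes), Hist1h1b, Cenpf, Hist1h2ap and Mki67, of cell division, in cluster 3 (17 barcodes, of which 23.5 to 47.1% had a UMI of each of these) and the interferon-stimulated Ifit3, Ifit2 and Rsad2 in cluster 5 (12). Cluster 4 (26 barcodes) was led by Col1a1, S100a9 and Il1b and took in the 2 barcodes with neutrophil markers and the 1 with fibroblast markers. Only 11.5% of its barcodes had a UMI of Col1a1, 15.4% of S100a9 and 50% of Il1b. Its leading genes Ier2 and Gadd45b were more widely shared, in 100% and 84.6%. Since clusters are cells of 1 library, values between them are descriptions.

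Cluster 1 was high in the resting genes and low in Spp1 and Gpnmb. It had 51.5% of the P2ry12 UMIs of the cord, 42.8% of Tmem119 and 30.3% of Cx3cr1, but 2.20% of Spp1 and 7 of 2799 Gpnmb UMIs. The median depth was 16102 UMIs here and 44902 in cluster 2, the deepest. In cluster 1 the median Spp1 was 2.05 per 10000, whereas the median was 293 for Apoe and 25.9 for Trem2.

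Cluster 2 was the opposite for most members. Its 9 barcodes held 84.0% of all Gpnmb UMIs, 48.1% of Lyz2 and 21.4% of Spp1, against 0.792% of Cx3cr1, 0.853% of P2ry12 and 0.425% of Tmem119. Gpnmb was at 114, 105, 67.6, 47.1, 38.3, 21.8 and 6.24 per 10000 in 7 of the barcodes and at 0 in 2. No barcode outside the cluster exceeded 26.4 per 10000, so 5 of the 9 lay above all others.

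Lyz2 in cluster 2 lay between 290 and 1018 per 10000 with a median of 533, which compares with medians of 29.3 to 76.5 in the other clusters. Cst7 did not go with Gpnmb, as cluster 2 held 3 Cst7 UMIs, 0.470% of the total. C1qa was also low there, at a median of 13.9 per 10000 against 102 to 127 elsewhere. The cluster had UMIs of all 18 macrophage markers and of 8 of 11 microglia markers, with Siglech, Sall1 and Slc2a5 at 0. In level, however, the summed microglia markers had a median of 11.8 per 10000, against 80.2 to 152 in the other clusters. Of 13 monocyte markers 12 had UMIs. Their summed level had a median of 4.82 per 10000, against 14.4 to 22.1 elsewhere, but reached 219.5 in 1 barcode. Cluster 2 comprised the same 9 barcodes at both other clustering resolutions and with the members among the clustering genes.

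Apoe and Trem2 differed little in median between clusters. Apoe medians were 286 to 310 per 10000 in the 5 clusters, and Trem2 medians 18.7 to 28.7 with the lowest in cluster 2. Spp1 by contrast had medians of 2.05, 188, 100.5, 80.0 and 64.2 in clusters 1 to 5. Clusters 3 and 5 had Cst7 medians of 1.33 and 0.918 per 10000, compared with 0.683 in cluster 1 and 0.899 in cluster 4.

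**Figure D4:**
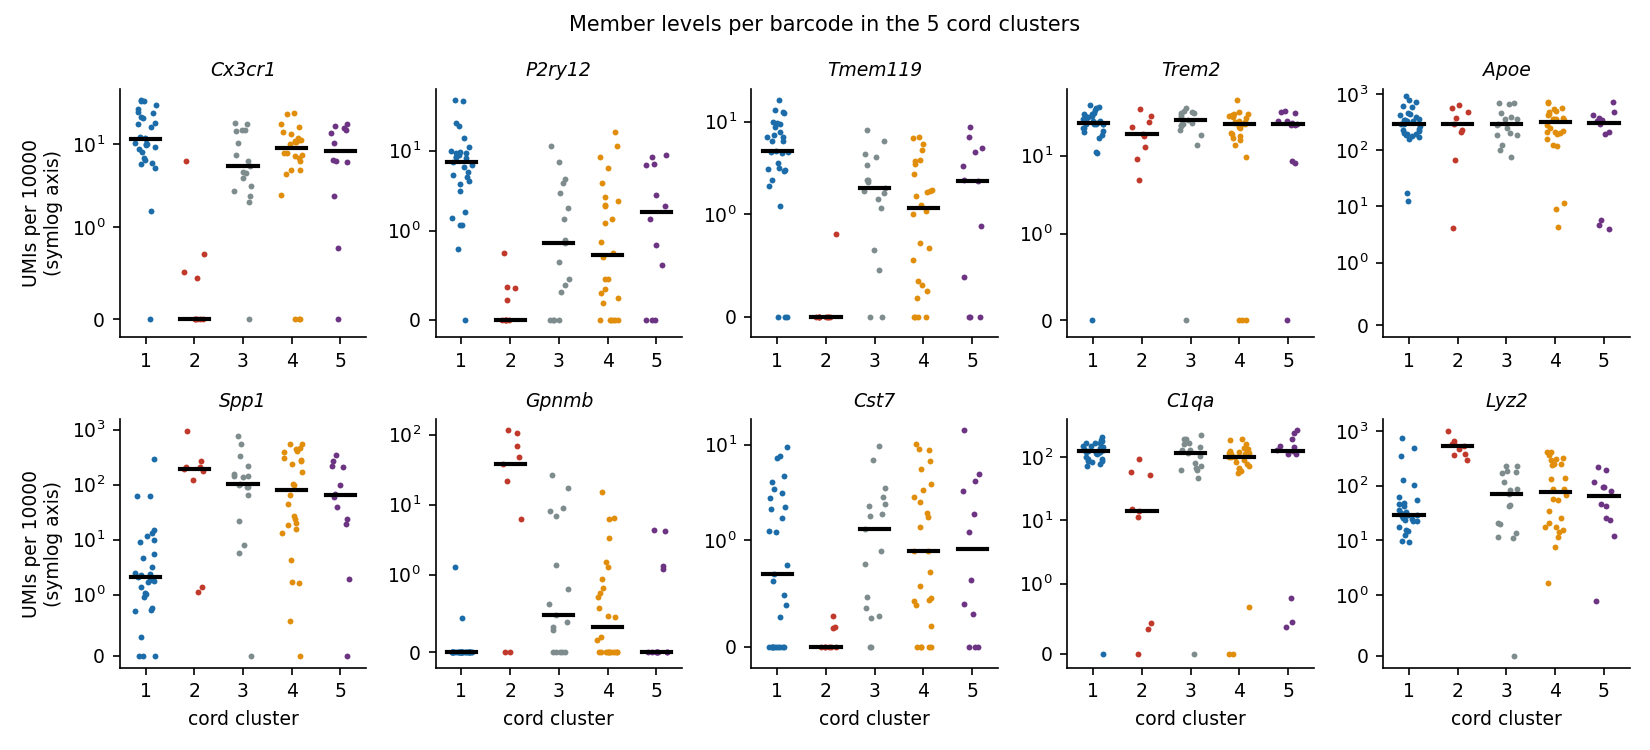
Levels of the 10 genes per barcode (UMIs per 10000 mm10 UMIs, symlog axis, linear below 1) in the 5 cord clusters of 29, 9, 17, 26 and 12 barcodes, with bars at the medians and points spread sideways for display. Cluster 2 is set apart by high Gpnmb and Lyz2 (medians 38.3 and 533) and by resting genes and Cst7 at a median of 0, and cluster 1 by low Spp1 (median 2.05).

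Resting and injury-associated genes were found together in many barcodes. Cx3cr1 and Cst7, both rare in human barcodes, were together in 65 of 93, with Cx3cr1 alone in 17, Cst7 alone in 2 and neither in 9. Cx3cr1 and Spp1 were together in 80, where Spp1 was also in 60.9% of human barcodes, and Apoe was not counted because every cord barcode had it. All 3 resting genes were together in 65 barcodes, all of Spp1, Gpnmb and Cst7 in 34, and all 6 genes in 23. These joint counts depended on depth, and after thinning to 5000 UMIs they were 45, 6 and 2 of 89 barcodes, while Cx3cr1 without Spp1 went from 2 to 11.

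In level, however, Spp1 and the resting genes ran in opposite directions. The 86 macrophage-rich barcodes were split in tertiles by the sum of Cx3cr1, P2ry12 and Tmem119, with medians of 4.71, 15.3 and 31.6 per 10000. Median Spp1 then was 188 in the lowest, 63.8 in the middle and 2.40 in the highest tertile, and Lyz2 221, 85.3 and 25.9. Apoe (327, 291 and 338) and Trem2 (27.1, 26.9 and 25.6) stayed close to level, and C1qa was 95.4, 121 and 126.

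Depth moved along with this order, at medians of 34436, 29614 and 19296 UMIs from the lowest to the highest tertile. After each barcode was thinned to 5000 UMIs and the tertiles were drawn again, median Spp1 was 194, 66.0 and 4.00 per 10000. Gpnmb had UMIs in 21 of 29 barcodes of the lowest tertile, 11 of 29 of the middle and 8 of 28 of the highest before thinning.

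**Figure D5:**
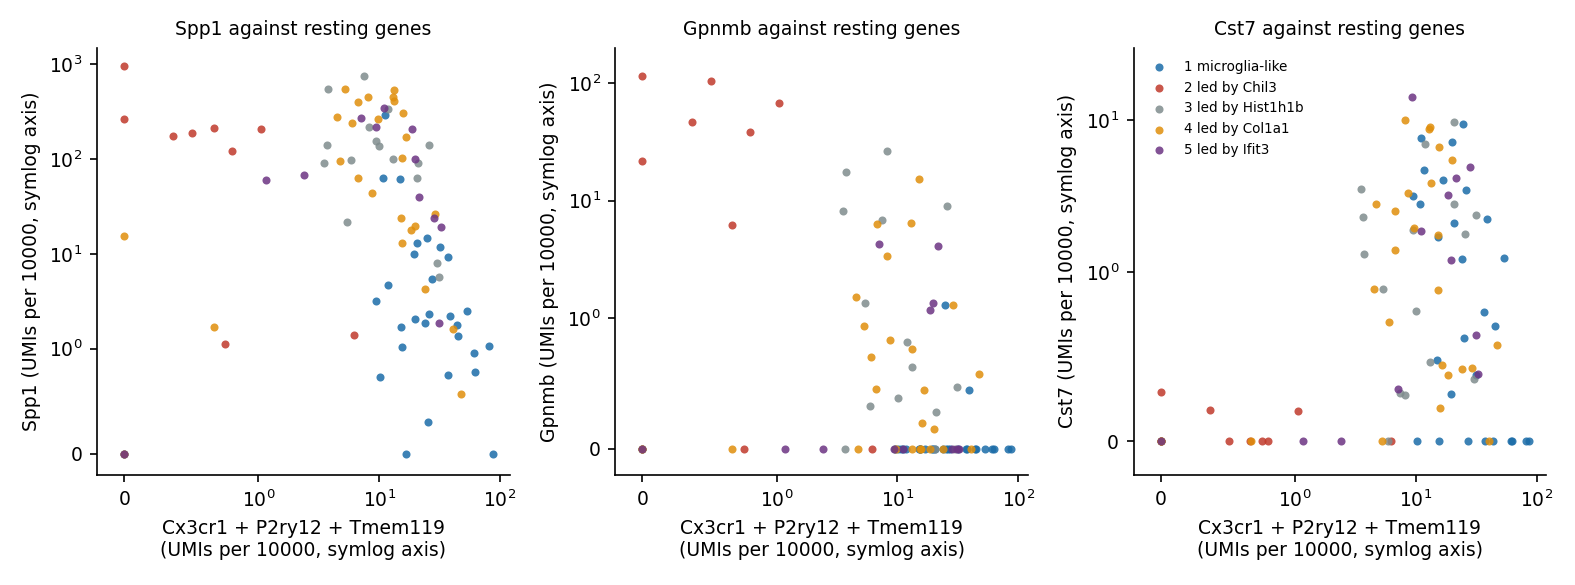
Spp1, Gpnmb and Cst7 of the 93 cord barcodes against the sum of Cx3cr1, P2ry12 and Tmem119, all as UMIs per 10000 mm10 UMIs on symlog axes (linear below 1), coloured by cluster. Spp1 falls towards high resting sums, Gpnmb above 26.4 occurs only in cluster 2, and Cst7 is highest at intermediate resting sums, where its top value is 14.2.

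Across the 86 macrophage-rich barcodes, which share a library and differ in depth, Pearson correlations of log levels are given as a description. The resting genes went together, with 0.77 for P2ry12 and Tmem119, 0.71 for Cx3cr1 and P2ry12 and 0.66 for Cx3cr1 and Tmem119. P2ry12 and Spp1 had −0.75 (−0.68 after thinning to 5000 UMIs), Cx3cr1 and Lyz2 −0.64, and Cx3cr1 and Gpnmb −0.60. Spp1 and Gpnmb had 0.50 with each other. Spp1 itself had 0.69 with depth and P2ry12 −0.49.

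Among 8896 genes with a UMI in at least 10% of the 93 cord barcodes, the 5 most like the mean of the resting members were Epb41l2 (r = 0.85), Csf1r (0.84), Gpr34 (0.83), Serinc3 (0.83) and Sparc (0.81). Csf1r is the receptor through which microglia depend on CSF1 and IL-34. Most like the mean of Spp1, Gpnmb and Cst7 were Ctsb (0.74), Fabp5 (0.73), Capg (0.72), Cd68 (0.71) and Prdx1 (0.68), of which Ctsb is a lysosomal protease, Fabp5 a fatty acid carrier and Cd68 a lysosomal membrane protein. In the macrophage-rich set, Marcks took the place of Gpr34 and Lgals3 that of Cd68.

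Of 20 further resting microglia genes, 15 were at least 2 times higher in cord than in SCI blood and 3 lower, beside 44.1% and 16.8% of all genes, with a median log2 ratio of 4.54 (3.91 with genes at 0 in blood set to their bound) beside 0.76 over all genes. Olfml3 was at 806 CPM in cord and 1.13 in SCI blood, and Sparc at 2622 with 0 UMIs in SCI blood. Csf1r was at 1179 against 258 CPM. Lower in cord were Selplg (log2 ratio −2.02), Cd33 (−1.58) and Entpd1 (−1.82), which blood myeloid cells also express.

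The longer list of injury-associated and lipid genes had 37 of 39 tested, 25 higher and 2 lower, beside 44.1% and 16.8% of all genes, with a median of 3.47. The lysosomal cathepsin Ctsd was highest in level, at 23508 CPM in cord against 1178 in SCI blood, and the iron-storage gene Fth1 was next at 17536 and 12184 CPM (log2 ratio 0.53). The cathepsins Ctsb and Ctsz followed, at 7527 against 481 CPM and 4555 against 298. Lower were Anxa2 (−2.47) and the chemokine Ccl6 (−3.78).

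Most genes that signal with TREM2 and APOE were not at least 2 times higher in cord than in SCI blood. Of 16 tested, 3 were higher and 4 lower by at least 2 times, beside 44.1% and 16.8% of all genes, with a median of −0.17. Tyrobp, the adaptor of Trem2, was at 5489 CPM in cord and 6208 in SCI blood, and Syk, the kinase it recruits, was lower (−2.69), as were Hcst (−1.04), Sorl1 (−5.21) and Clu (−3.78). Lrp1, a lipoprotein receptor, was higher (1.94), as were Ms4a6d (2.53) and the protease Adam10 (1.03), the last named after its value was seen. Grb2 was at −0.66. These ratios are over all mouse leukocytes of SCI blood, where 752 of 839 barcodes had over 100 neutrophil-marker UMIs per 10000. Values against monocyte-like barcodes alone are not given for the gene lists.

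Complement and phagocytosis genes numbered 18 tested, with 9 higher and 4 lower, shares near the 44.1% and 16.8% of all genes, and a median of 1.20. C1qb (7328 CPM in cord, 31.2 in SCI blood) and C1qc (5768 and 24.4), the partners of C1qa in C1q, followed it, and Fcgr1 was also higher (log2 ratio 3.79) while Fcer1g was at 0.24. C3 (−2.48), C5ar1 (−2.01), Cfp (−1.85) and Cd93 (−1.96) were lower in cord.

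A list of 20 genes known to respond to tissue dissociation was read because of the papain step, and 4 were higher and 7 lower in cord, beside 44.1% and 16.8% of all genes, with a median of −0.51. Fos was at 882 CPM in cord and 1632 in SCI blood (log2 ratio −0.89) and Dusp1 was lower (−2.48), as were Junb (−1.5), Jund (−1.72), Ier2 (−1.08), Ier5 (−1.89), Btg2 (−1.87) and Nr4a1 (−1.85), whereas Rgs1 was higher (5.12). The other higher genes, named after their values were seen, were Atf3 (2.78), Jun (2.19) and Fosb (1.63). Within cord, the summed level of the list had medians of 36.4, 58.6, 36.8, 132 and 41.5 per 10000 in clusters 1 to 5, and its part in the members' values was not tested.

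All 14 cell cycle genes were at least 2 times higher in cord, beside 44.1% of all genes, with a median log2 ratio of 4.20 (3.96 with bounds). Tubb5 was at 435 CPM against 42.0 in SCI blood, Stmn1 at 121 against 10.2, Hist1h2ap at 56.8 against 14.2 and Mki67 at 49.0 against 2.83. Among cord barcodes the list had a median of 4.95 per 10000 in cluster 3 and 1.93 to 3.81 in the others. It reached 117 in cluster 3, where 5 of the 17 barcodes lay above the 16.5 that was highest elsewhere.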

How the data were processed

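Droplet scRNAseq (10x 3′ v3, 1 sequencing run) was measured in 4 libraries. The authors counted UMIs per gene and barcode with Cell Ranger 3.1.0 on combined hg38 and mm10, and deposited raw counts without normalisation. The build of the reference used here for positions is GRCm38, the same as mm10.

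From these counts, barcodes with over 50% mm10 UMIs were kept, and in blood those with over 20% haemoglobin UMIs were removed. No doublet caller was run, and 1 cord and 10 SCI blood mouse barcodes had over 10% human UMIs. CPM left out 118 ribosomal protein and mitochondrial genes, log2 ratios used 0.5 added counts, and ratios are cord over blood. Clusters used 1000 variable genes without the 10 genes, 15 components, 10 neighbours and Leiden resolution 0.8. A cluster was named where at least 3 markers of a type were in at least 10% of its barcodes. Its 10 leading genes also had to hold more markers of that type than of any other. Leading genes were ranked by the fold of their level in the cluster over that in all other barcodes. In the microglia-like cord cluster they held 2 of the 11 microglia markers. Of the 13 monocyte markers they held 4 in the blood cluster led by Fn1 and Ccr2. In the cluster led by Cd300e and Cd72 they held 2.

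The 10 genes, the gene lists and the markers were chosen with earlier results of these data known. Named genes were the 10 members, the 4 highest genes of each list in cord, list genes at least 2 times higher in SCI blood, the 5 most correlated genes and leading cluster genes. Clec7a was not analysed here. A gene that this rule names is not reported here.

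Python 3.11.15, scipy 1.17.1, scanpy 1.11.5 and igraph 0.11.9 were used, with edgeR 4.0.16 for TMM factors only. The calculations were tested on simulated data. Alternatives included 90% mouse UMIs, a filter at 3 median absolute deviations (MADs), haemoglobin limits of 5% and 50%, thinning to 1000 UMIs and other minimum counts. Those added after seeing the data were the macrophage-rich set, monocyte-like blood, leaving out the C1qa-rich blood barcode and thinning to 5000 UMIs.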

Additional observations from a re-analysis of the deposited data

How the results depend on the processing

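With 1 library per group, no library could be left out and the spread between animals is unknown. No paired analysis was possible because each group had 1 library and no test was made. Of 183 alternative values, 123 moved by less than their counting interval or 1.5 times, 59 by more, and 1 turned direction, the log2 ratio of Lyz2 (−0.18 against monocyte-like SCI blood barcodes). All 10 genes stayed at least 2 times higher in cord than SCI blood under the alternatives run, other than Lyz2 with TMM factors and with monocyte-like blood. The MAD filter kept 0 of 71 monocyte-like SCI blood barcodes, and left 0 Cx3cr1 and 0 Trem2 UMIs in SCI blood. Cord was then at least 523-fold higher for Cx3cr1 and 1528-fold for Trem2 against 3 counts, with log2 ratios of 11.35 for Apoe (21 UMIs left) and 2.42 for Lyz2.

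The number of mm10 genes at least 2 times higher in cord was 4014, and 7484 with a minimum of 1 count, 1657 with 100 counts and 1337 against monocyte-like barcodes. Barcodes with all 3 resting genes and all of Spp1, Gpnmb and Cst7 numbered 23, and 10 with at least 2 UMIs per gene, 0 when thinned to 1000 UMIs and 2 when thinned to 5000. For the 3 resting genes, 65 became 6 at 1000 UMIs, and for Spp1, Gpnmb and Cst7, 34 became 20, 1 and 6 under the same settings. Cord clusters went from 5 to 8 at a resolution of 1.5, and blood clusters from 11 to 5 at 0.4 and 20 at 1.5. Monocyte-like blood barcodes went from 250 to 146 at 1.5, and also to 146 with the members among the clustering genes; the cause was not tested. Thinned shares were limited by depth.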
